A study of Mus musculus with 6 samples.

Results

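The genes described here are the Fc gamma receptor genes Fcgr1, Fcgr2b, Fcgr3 and Fcgr4, the signalling chain genes Fcer1g and Tyrobp, the kinase gene Syk and the adaptor gene Stap1. They were listed by name, and each was measured by a single probe set with exactly 1 gene symbol, which makes 8 of the 22180 genes with such a probe set. All 8 exceeded a log2 signal of 4.335, below which a gene was treated as dim, in each of the 6 samples, so none was lost to the filter on low values. The cells were dermal macrophages, sorted by flow cytometry from digested ear skin of C57Bl/6 mice aged 2 weeks. Every mouse had the genotype Cx3cr1+/gfp, in which green fluorescent protein replaces 1 copy of the fractalkine receptor gene Cx3cr1 and reports its activity. The 3 subsets, CX3CR1low, CX3CR1int (intermediate) and CX3CR1high, differed only in the level of CX3CR1 by which they were sorted. No group was treated or carried a different genotype, and all groups lacked that copy of Cx3cr1. Each subset had 2 samples, each of cells pooled from 4 mice, taken from 2 independent litters.

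Fc gamma receptors bind the constant part of IgG antibodies and let a macrophage take up and respond to coated particles. The activating receptors FcγRI, FcγRIII and FcγRIV, encoded by Fcgr1, Fcgr3 and Fcgr4, have no signalling motif of their own and need the common gamma chain, encoded by Fcer1g. That chain and the related adaptor DAP12, encoded by Tyrobp, carry an immunoreceptor tyrosine-based activation motif (ITAM). Src family kinases phosphorylate the motif, the kinase Syk docks on it, and Syk then passes the signal on. FcγRIIB, encoded by Fcgr2b, instead carries an inhibitory motif (ITIM) that recruits phosphatases and restrains the activating receptors. Stap1 is an adaptor protein with a phospholipid-binding PH domain and an SH2 domain, known as a docking protein downstream of the kinase Tec.

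Fcgr2b, Fcgr4 and Fcgr3 lie next to each other among the protein-coding genes of chromosome 1, and 7 protein-coding genes separate Fcgr3 from Fcer1g, while Fcgr1 lies on chromosome 3. The stretches before the start sites of the 4 IgG receptor genes are shown because the values of these receptors, 3 of them neighbours, differed between samples in different ways. They are 250 bases long, come from RefSeq with the build GRCm38.p6 and read 5′ to 3′ on the strand of the gene. Capitals mark GAGGAA on either strand, the core of the sites bound by PU.1, the Ets family factor that macrophages require.
Fcgr1, chr3:96293970-96294219, minus strand: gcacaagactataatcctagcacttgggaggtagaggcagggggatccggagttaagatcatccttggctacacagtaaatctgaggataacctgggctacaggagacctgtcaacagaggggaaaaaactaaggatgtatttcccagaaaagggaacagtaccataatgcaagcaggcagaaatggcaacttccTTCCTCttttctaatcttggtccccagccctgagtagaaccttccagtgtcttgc
Fcgr2b, chr1:170976072-170976321, minus strand: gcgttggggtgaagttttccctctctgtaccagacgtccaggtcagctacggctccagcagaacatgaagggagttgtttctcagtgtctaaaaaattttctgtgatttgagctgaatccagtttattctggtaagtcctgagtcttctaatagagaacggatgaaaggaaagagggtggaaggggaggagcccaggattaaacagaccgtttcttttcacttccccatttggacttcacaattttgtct
Fcgr3, chr1:171059404-171059653, minus strand: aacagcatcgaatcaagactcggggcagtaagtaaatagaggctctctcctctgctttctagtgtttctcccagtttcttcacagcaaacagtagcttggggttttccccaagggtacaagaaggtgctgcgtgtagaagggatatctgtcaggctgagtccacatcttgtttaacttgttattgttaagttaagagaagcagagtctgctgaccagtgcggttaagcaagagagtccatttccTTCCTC
Fcgr4, chr1:171018676-171018925, plus strand: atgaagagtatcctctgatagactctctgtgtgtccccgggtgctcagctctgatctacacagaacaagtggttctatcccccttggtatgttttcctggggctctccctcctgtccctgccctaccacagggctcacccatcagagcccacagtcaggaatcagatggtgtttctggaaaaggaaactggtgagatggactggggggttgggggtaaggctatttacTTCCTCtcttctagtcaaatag
The core began 55 bases before the start of Fcgr1, 22 before that of Fcgr4 and 6 before that of Fcgr3, where a second start site in the table had it too. It was not in the Fcgr2b stretch. RefSeq sequences were at hand for 6 of the 8 genes, and 4 of these, among them Syk at 1 of its start sites, held GAGGAA. Of all 32851 such stretches in the table, 23.3% held it, counting either strand, and no second motif was searched that could overlap it. That share counts single stretches, of which the 6 genes had 8, so it cannot be set against the count of genes. A match describes letters only.

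Median log2 signals of the arrays ran from 4.84 to 4.94. Core macrophage markers were bright in every sample, with a mean log2 signal over 12 measured genes of 10.7 and 10.6 (CX3CR1low), 10.5 and 10.8 (CX3CR1int) and 10.6 and 10.7 (CX3CR1high). Cx3cr1, by whose product the cells were sorted, gave 5.87 and 7.01 (CX3CR1low), 7.05 and 6.84 (CX3CR1int) and 10.55 and 9.51 (CX3CR1high), so the lower subsets overlapped. The macrophage genes Adgre1 and Mrc1 differed by -0.08 and -0.10 between CX3CR1high and CX3CR1low cells. The means of 11 keratinocyte markers were 6.99 and 7.49 (CX3CR1low), 6.46 and 6.75 (CX3CR1int) and 6.46 and 6.55 (CX3CR1high). The means of 12 fibroblast markers were 7.44 and 8.04, 7.09 and 7.24, and 6.83 and 6.83 in the same order. Both lists were highest in CX3CR1low samples. Marker means lay between 4.35 and 4.44 for NK and T cells, 6.05 and 6.63 for Langerhans cells, 6.05 and 6.25 for dendritic cells, and 4.50 and 5.02 for endothelial cells. Such means hide single genes that went both ways, from -1.12 to 1.93 on the dendritic and from -1.04 to 1.22 on the Langerhans cell list between CX3CR1high and CX3CR1low cells. Of the dendritic cell list 1 gene was called higher and of the keratinocyte list 1 lower between CX3CR1high and CX3CR1low cells. Xist, the transcript of the inactive X chromosome, lay between 7.39 and 7.97 in replicates 1 and between 10.99 and 11.39 in replicates 2, so the replicates differed in sex composition in every subset. In bulk samples such as these, fewer cells of a type and less RNA per cell cannot be told apart.

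Among the 8 genes, Stap1 alone passed the test between any subsets. Its signal in CX3CR1high cells rose to 3.56-fold that in CX3CR1low cells. The receptors, the ITAM chains and Syk differed by 0.65 log2 units or less in each comparison, and none passed. Genes called at an adjusted p below 0.05 (limma, Benjamini-Hochberg over all 15529 genes tested) made up 0.399% of genes between CX3CR1high and CX3CR1low cells, 0.142% between CX3CR1high and CX3CR1int cells and 0.00644% between CX3CR1int and CX3CR1low cells. The 8 genes gave 1, 0 and 0 calls in these comparisons. The comparisons share samples and are not independent.

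**Figure D1:**
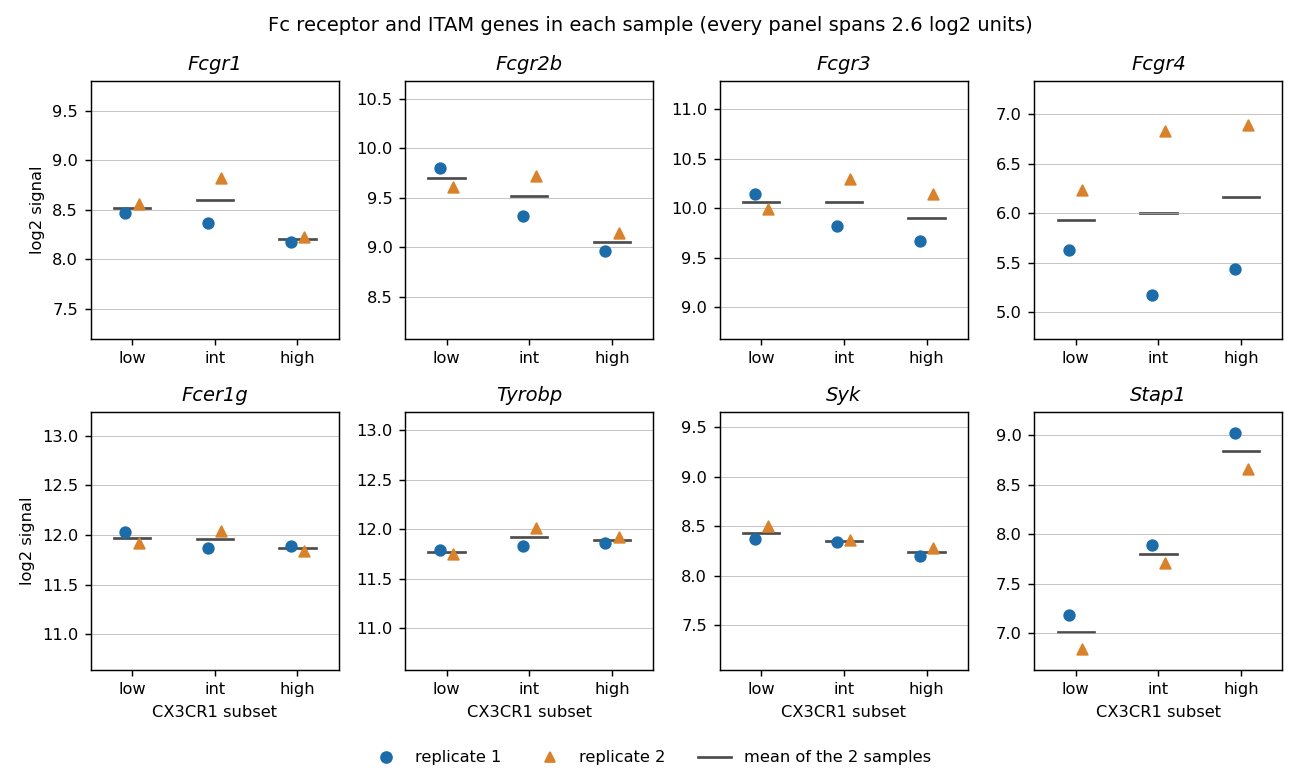
Log2 signal of each of the 8 genes (vertical axis, with the same span of units in every panel) in the CX3CR1low, CX3CR1int and CX3CR1high samples (horizontal axis). Points are samples, circles for replicate 1 and triangles for replicate 2, and bars are the means of 2 samples. Stap1 climbs from 6.84 to 9.02 without overlap of the subsets, while Fcgr4 splits by replicate and Fcer1g and Tyrobp stay within a range of 0.20 and 0.26.

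Stap1 (probe set 17438584) had log2 signals of 7.18 and 6.84 in the CX3CR1low samples, 7.89 and 7.71 in the CX3CR1int samples, and 9.02 and 8.66 in the CX3CR1high samples. The subsets did not overlap, and their order followed the sort, with the lowest CX3CR1high sample above the highest CX3CR1int sample and that subset wholly above CX3CR1low. The difference between CX3CR1high and CX3CR1low cells was 1.83 ± 0.20 (SE, n = 2 per subset), with an adjusted p of 0.0163 in limma. Between CX3CR1high and CX3CR1int cells it was 1.04 ± 0.20 (SE), with a 95% interval from 0.58 to 1.504 and an adjusted p of 0.150, which became 0.0305 once arrays were shifted to equal core macrophage markers. Between CX3CR1int and CX3CR1low cells it was 0.79 ± 0.20 (SE), with an interval from 0.33 to 1.25 and an adjusted p of 0.896. The middle position of the CX3CR1int samples describes 2 samples, and neither step passed on the deposited scale. Groups that do not overlap were common at this sample number, since 19.8% of genes tested lay wholly higher in CX3CR1high than in CX3CR1low samples. By unadjusted p, Stap1 ranked 10 among the genes tested between CX3CR1high and CX3CR1low cells. The call was lost when replicate 2 of CX3CR1low was left out (1.66, adjusted p = 0.0674), and likewise for replicate 1 (1.65, adjusted p = 0.169) or replicate 2 (2.01, adjusted p = 0.0518) of CX3CR1high.

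Stap1 is also expressed by B cells, so their markers were read beside it. The means over 8 B cell markers were 5.31 and 5.38 (CX3CR1low), 5.26 and 5.34 (CX3CR1int) and 5.44 and 5.02 (CX3CR1high). Ms4a1, which encodes CD20, and the complement receptor gene Cr2 were below the dim level in every sample. On the same list, Ighm lay between 8.78 and 9.64 and Cd37 between 7.33 and 8.42 over the 6 samples. None of the 5 B cell markers tested was called between CX3CR1high and CX3CR1low cells, and their median difference was -0.29. Scaled so that the core macrophage markers had the same mean on every array, the Stap1 difference was 1.87. The fibroblast means were lowest in the CX3CR1high samples, where Stap1 was highest. The keratinocyte means were highest in the CX3CR1low samples, where Stap1 was lowest, and were much alike in CX3CR1int and CX3CR1high samples. Some dendritic and Langerhans cell markers were high in the same samples as Stap1. The chemokine gene Ccl22, the 1 called gene of the dendritic cell list, gave 5.94 and 6.90 (CX3CR1low), 6.90 and 6.93 (CX3CR1int) and 8.57 and 8.12 (CX3CR1high), and rose by 1.93 between CX3CR1high and CX3CR1low cells (limma, adjusted p = 0.0428). Cd207, which encodes langerin, gave 6.72 and 6.48, 6.00 and 6.85, and 7.57 and 8.07 in that order (1.22, adjusted p = 0.181). Ccr7 had 5.74 and 5.64, 6.83 and 6.73, and 7.29 and 6.72, and Itgax 4.43 and 4.58, 4.97 and 4.46, and 5.42 and 5.41. On the dendritic cell list 5 tested genes were higher and 5 lower, and on the Langerhans cell list 2 were higher and 3 lower. The part of any of these cells in the Stap1 difference was not tested.

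Fcgr2b (probe set 17229607) had the largest difference among the receptors, with log2 signals of 9.80 and 9.61 (CX3CR1low), 9.32 and 9.72 (CX3CR1int) and 8.96 and 9.15 (CX3CR1high). Both CX3CR1high samples lay below all 4 others, and the CX3CR1int and CX3CR1low samples overlapped. CX3CR1high cells were at -0.65 ± 0.18 (SE, n = 2 per subset) against CX3CR1low cells, with a 95% interval from -1.06 to -0.24, an unadjusted p of 0.00622 and an adjusted p of 0.255 in limma. Against CX3CR1int cells the difference was -0.47 ± 0.18 (SE), with an interval from -0.88 to -0.05 and an adjusted p of 0.564. Unadjusted p-values below 0.05 were found for 9.65% of genes between CX3CR1high and CX3CR1low cells, so that the inhibitory receptor did not pass once all genes were counted. Fcgr2b is made by B cells as well, whose markers are given above. Of these, Ighm was also lowest in the CX3CR1high samples. Among the 5 tested, 3 were lower and 2 higher in CX3CR1high than in CX3CR1low cells. The part of such cells was not tested.

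Fcgr1 (probe set 17408024), the gene of the high-affinity receptor FcγRI, gave 8.47 and 8.56 (CX3CR1low), 8.37 and 8.82 (CX3CR1int) and 8.18 and 8.23 (CX3CR1high). The CX3CR1high samples were again the lowest, and the CX3CR1int samples enclosed those of CX3CR1low. The difference was -0.31 ± 0.19 (SE) against CX3CR1low cells (95% interval -0.74 to 0.12, adjusted p = 0.672) and -0.39 ± 0.19 (SE) against CX3CR1int cells (-0.82 to 0.04, adjusted p = 0.661).

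Fcgr3 (probe set 17229620), the gene of the low-affinity activating receptor FcγRIII, gave 10.14 and 9.99 (CX3CR1low), 9.82 and 10.30 (CX3CR1int) and 9.67 and 10.14 (CX3CR1high). All subsets overlapped. CX3CR1high differed from CX3CR1low cells by -0.16 ± 0.21 (SE), with a 95% interval from -0.64 to 0.32, and CX3CR1int from CX3CR1low cells by -0.005 (interval -0.48 to 0.47). The extracellular parts of FcγRIIB and FcγRIII are closely related, and probes of one gene may take up RNA of the other to an extent that was not tested.

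Other genes were also read relative to Fcgr2b within single arrays. Set against the mean of the CX3CR1low samples, the log2 signal of Fcgr3 minus that of Fcgr2b was -0.02 and 0.02 (CX3CR1low), 0.14 and 0.22 (CX3CR1int) and 0.35 and 0.63 (CX3CR1high). For Fcgr1 minus Fcgr2b the values were -0.14 and 0.14, 0.24 and 0.29, and 0.41 and 0.27. Both differences were larger in the CX3CR1high and CX3CR1int samples than in those of CX3CR1low. The same values in the CX3CR1high samples were 0.66 and 0.42 for Fcer1g, 0.84 and 0.71 for Tyrobp, 0.51 and 0.40 for Syk, and 0.25 and 1.51 for Fcgr4. All 6 genes compared were thus higher relative to Fcgr2b there. Fcgr2b had the lowest difference of the 8 genes from CX3CR1low cells, at -0.65 in CX3CR1high and -0.185 in CX3CR1int cells. The means of the other genes relative to it therefore had to be higher in both subsets, so nothing about the activating receptors follows from this. The values relative to Fcgr2b were chosen after the values of the genes were seen, are relative changes only, and carry no test.

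Fcgr4 (probe set 17219199), the gene of FcγRIV, which binds IgG2a and IgG2b, differed more between replicates than between subsets. It gave 5.63 and 6.24 (CX3CR1low), 5.18 and 6.83 (CX3CR1int) and 5.44 and 6.89 (CX3CR1high). Replicate 2 was higher in 3 of 3 subsets, and the subsets overlapped throughout. The difference of CX3CR1high from CX3CR1low cells was 0.23 ± 0.57 (SE), with a 95% interval from -1.06 to 1.52, the widest interval among the 8 genes. That fit left the replicate number out, so its SE includes the step between replicates. Once the model also held the replicate number, the SE was 0.25 (limma, adjusted p = 0.817). With the replicate number as a term beside the subsets, a test chosen after the values were seen, replicate 2 exceeded replicate 1 by 1.24 ± 0.21 (SE, 2.36-fold), with an adjusted p of 0.0960 in limma. That did not pass, and 0.0837% of genes passed in this comparison, while 7.78% had an unadjusted p below 0.05. It passed in 1 of 12 alternatives, the shift of arrays to equal core macrophage markers (1.19, adjusted p = 4.95e-05). With single samples left out the adjusted p lay between 0.276 and 0.818. Replicate 2 was higher in all 3 subsets for 12% of genes tested and lower in all 3 for 16.5%, and higher by at least 1 log2 unit on average for 0.27%. The replicates of a subset came from separate litters and differed in Xist, and these cannot be told apart here. The labels do not state that a number marks the same litter in every subset. Neutrophil marker means were 4.26, 4.25 and 4.34 in replicates 1 and 4.54, 4.70 and 4.37 in replicates 2 of CX3CR1low, CX3CR1int and CX3CR1high. The step was slight in CX3CR1high samples, and the means lay near the dim level. Single genes of the list went both ways. S100a8 gave 3.85, 4.03 and 4.43 in replicates 1 and 6.01, 5.77 and 4.80 in replicates 2. S100a9 gave 4.73, 4.28 and 4.36 in replicates 1 and 5.22, 5.33 and 5.18 in replicates 2. Cxcr2 was mixed, with 4.79, 5.31 and 5.32 in replicates 1 and 4.88, 5.12 and 5.18 in replicates 2. Ltf gave 4.88, 4.80 and 4.92 in replicates 1 and 4.61, 4.67 and 4.44 in replicates 2. The neutrophil genes Ly6g, Ngp, Camp and Retnlg, 4 of the 10 measured, were below the dim level in every sample. The monocyte marker means were 6.06, 6.35 and 5.97 in replicates 1 and 6.37, 6.59 and 5.99 in replicates 2. These means hide single genes that went both ways between subsets. Ly6c2 gave 6.48 and 7.11 (CX3CR1low), 7.35 and 7.90 (CX3CR1int) and 3.36 and 4.92 (CX3CR1high). Ccr2 gave 5.56 and 7.15, 6.99 and 7.05, and 7.92 and 7.26 in that order. Of the monocyte list 1 gene was called lower in CX3CR1high than in CX3CR1int cells, against calls for 0.142% of all genes. The part of either cell type in the Fcgr4 values was not tested.

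**Figure D2:**
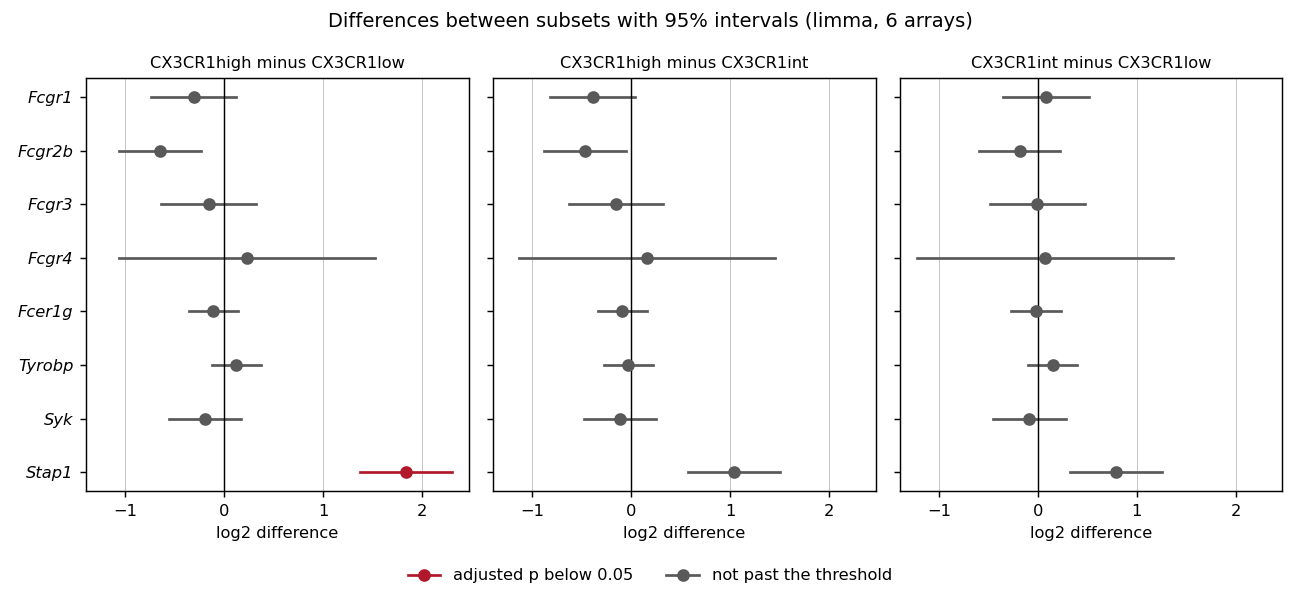
Log2 difference between subsets (horizontal axis) for each of the 8 genes (vertical axis) in the 3 comparisons, from a limma fit to 6 arrays. Points are differences and bars their 95% intervals, drawn in red at an adjusted p below 0.05, which holds for Stap1 at 1.83 in the left panel alone. Fcgr4 has the widest bars, from -1.06 to 1.52 in that panel, in this fit without the replicate number.

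The ITAM chains varied least. Fcer1g (probe set 17229658) gave 12.03 and 11.92 (CX3CR1low), 11.87 and 12.04 (CX3CR1int) and 11.89 and 11.84 (CX3CR1high). The CX3CR1high samples lay below those of CX3CR1low by a narrow margin, with a difference of -0.11 ± 0.11 (SE) and a 95% interval from -0.36 to 0.14. Mast cells share this chain in their IgE receptor, and mast cell marker means were 5.54 and 5.34 (CX3CR1low), 4.88 and 5.05 (CX3CR1int) and 4.39 and 4.27 (CX3CR1high). All 7 mast cell markers tested were lower in CX3CR1high than in CX3CR1low cells, with a median difference of -0.90. Of these, 3 were called at an adjusted p below 0.05, against 0.399% of all genes. The other IgE receptor genes, Fcer1a and Ms4a2, were too dim to be tested. The part of mast cells in the Fcer1g values was not tested.

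Tyrobp (probe set 17476364) gave 11.79 and 11.75 (CX3CR1low), 11.83 and 12.01 (CX3CR1int) and 11.86 and 11.92 (CX3CR1high). The CX3CR1low samples were the lowest, and the other subsets overlapped. CX3CR1high differed from CX3CR1low cells by 0.12 ± 0.11 (SE), with a 95% interval from -0.13 to 0.37 (adjusted p = 0.803). For both chains the interval between CX3CR1high and CX3CR1low cells excludes a change of 1 log2 unit in either direction. The number of arrays limits what smaller changes could be seen.

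Syk (probe set 17287381) gave 8.37 and 8.50 (CX3CR1low), 8.34 and 8.36 (CX3CR1int) and 8.20 and 8.28 (CX3CR1high). These groups did not overlap, and they ran opposite to the sort, with the highest values in CX3CR1low samples. The differences were small, at -0.195 ± 0.16 (SE) between CX3CR1high and CX3CR1low cells, with a 95% interval from -0.56 to 0.17 and an adjusted p of 0.779. Between CX3CR1high and CX3CR1low cells, 6 of the 8 genes had groups that did not overlap, 2 higher (Stap1 and Tyrobp) and 4 lower (Fcgr1, Fcgr2b, Fcer1g and Syk), against 38.3% of all genes tested (19.8% higher and 18.4% lower). The median difference of the 8 genes was -0.14, and that of all genes tested was 0.005. Between CX3CR1high and CX3CR1int cells 4 of the 8 did not overlap (36.8% of all genes), Stap1 higher (18.3%) and Fcgr1, Fcgr2b and Syk lower (18.5%). Between CX3CR1int and CX3CR1low cells 3 did not overlap (31.4%), Stap1 and Tyrobp higher (16.6%) and Syk lower (14.8%).

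The other genes of the pathway were read from lists of receptors, adaptors, kinases and inhibitors, which held 116 tested genes of 140 listed. The lists were chosen with earlier results of these data known, so their shares and leanings are descriptions and carry no test. Of the 116 genes, 2 rose in CX3CR1high against CX3CR1low cells and none fell, a share of 1.72% against 0.399% of all genes, or 0.213% counting those that rose. Both encode inhibitors of such signalling. Clec12a, an ITIM lectin receptor of myeloid cells, gave 6.84 and 7.49 (CX3CR1low), 7.56 and 7.68 (CX3CR1int) and 9.74 and 9.34 (CX3CR1high). Sla, an adaptor that dampens signalling from ITAM receptors in lymphocytes, gave 6.80 and 7.07, 7.17 and 7.33, and 8.51 and 8.14 in the same order. In both genes the CX3CR1high samples lay above all others. Sla rose by 1.39 ± 0.20 (SE, adjusted p = 0.0370) from CX3CR1low to CX3CR1high cells and was 1.08 higher than in CX3CR1int cells (adjusted p = 0.131). Clec12a rose by 2.38 ± 0.24 (SE, adjusted p = 0.0103) over CX3CR1low and by 1.92 over CX3CR1int cells (adjusted p = 0.0405), where it was the only call among the pathway genes, 0.862% of them against 0.142% of all genes, or 0.0773% counting those that rose. Between CX3CR1int and CX3CR1low cells no pathway gene was called. Each of these calls was lost without 1 or another sample: that of Sla without any of the 6 (adjusted p up to 0.248), that of Clec12a over CX3CR1low without the CX3CR1high sample 1 (adjusted p = 0.154), and that over CX3CR1int without either sample of CX3CR1int or CX3CR1high (adjusted p up to 0.374). When the model also held the replicate number as a block, 4 pathway genes were called between CX3CR1high and CX3CR1low cells (0.992% of all genes), all higher, and Cd300c2 and Lair1 were the added ones.

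**Figure D3:**
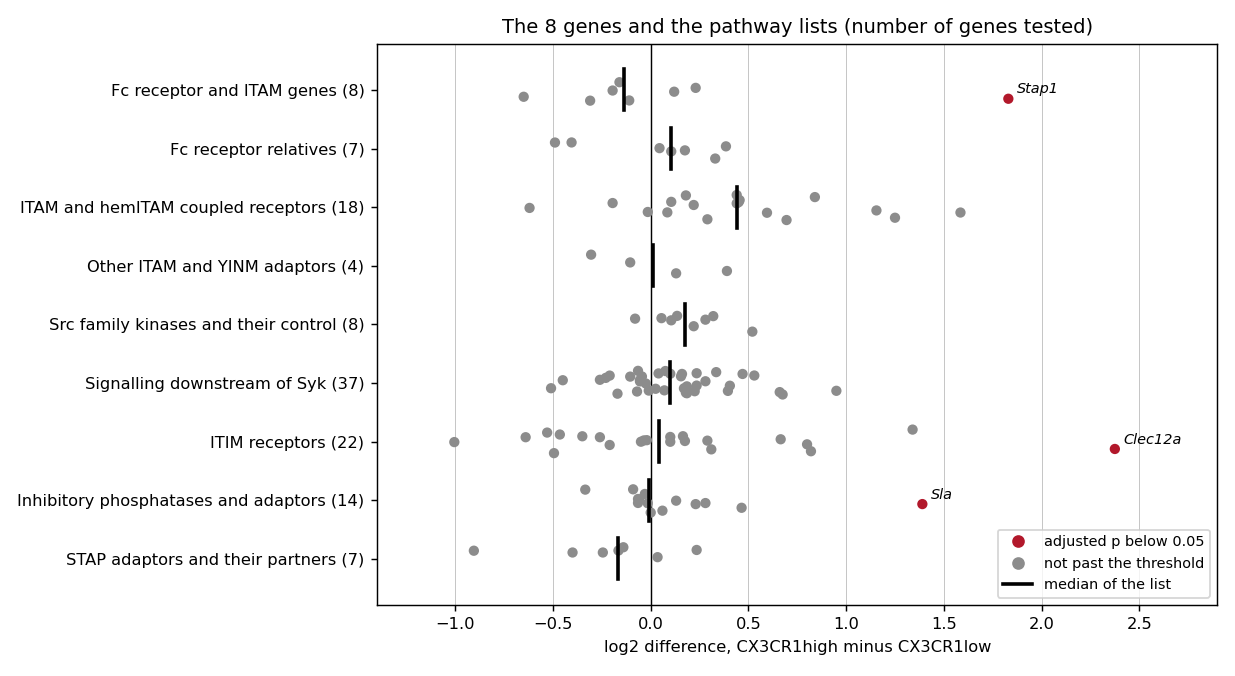
Log2 difference of CX3CR1high minus CX3CR1low (horizontal axis) for the 8 genes and for each pathway list (rows, with the number of genes tested). Points are genes, red at an adjusted p below 0.05, and black bars are medians. Red points are Stap1 at 1.83, Clec12a at 2.38 and Sla at 1.39, and the median of the ITAM and hemITAM coupled receptors lies at 0.44.

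Receptors that signal through ITAM chains or the related hemITAM leaned upward without a call. Of 18 tested, 15 were higher in CX3CR1high than in CX3CR1low cells, with a median of 0.44 against 0.005 for all genes, of which 50.7% were higher, and the groups did not overlap in 8, all of them higher (19.8% of all genes lay wholly higher). Cd300c2, an activating receptor of the CD300 family, gave 7.29 and 7.45 (CX3CR1low), 7.56 and 7.72 (CX3CR1int) and 8.31 and 8.74 (CX3CR1high), a difference of 1.16 ± 0.20 (SE, adjusted p = 0.0600, and 0.0246 with the replicate block). Lilra5, an activating immunoglobulin-like receptor, was 1.25 higher (adjusted p = 0.105). The highest difference of the list was that of Clec7a, the beta-glucan receptor dectin-1, at 1.59 (adjusted p = 0.401), a gene named after its value was seen. Its CX3CR1low samples stood far apart, at 5.43 and 6.99.

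ITIM receptors did not lean either way, with 11 of 22 higher and 11 lower and a median of 0.04 between CX3CR1high and CX3CR1low cells. Besides Clec12a, the collagen receptor gene Lair1 was 1.34 higher (adjusted p = 0.0531, and 0.0319 with the replicate block) and Milr1, an inhibitory receptor known from mast cells, 0.80 higher (adjusted p = 0.140). The lowest difference of the list was that of Cd200r1, at -1.005 (adjusted p = 0.405), a gene named after its value was seen. At an unadjusted p below 0.05, 4 genes of the list were higher and 5 lower, against 9.65% of all genes in either direction. Among 14 inhibitory phosphatases and adaptors, Sla was the only call. Ptpn6, the gene of the phosphatase SHP-1, was 0.47 higher (adjusted p = 0.504) and the adaptor gene Dok2 differed by -0.34 (adjusted p = 0.709). The median of this list was -0.01.

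None of 37 tested genes for signalling downstream of Syk was called, and 23 were higher and 14 lower in CX3CR1high against CX3CR1low cells, with a median of 0.10. Malt1, a protease of the complex that links Syk to NF-kB, was 0.95 higher (adjusted p = 0.255) and Lat2, a membrane adaptor, 0.66 higher (adjusted p = 0.259). Of 8 Src family kinase genes and their regulators, 7 were higher, with a median of 0.18. Fyn was 0.52 higher (adjusted p = 0.433) and Ptprc, which encodes the phosphatase CD45, 0.32 higher (adjusted p = 0.496).

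The relatives of the Fc receptors and of Stap1 gave no call. Fcgrt, the gene of the neonatal Fc receptor that recycles IgG, differed by -0.49 (adjusted p = 0.394), and Trim21, a cytosolic antibody receptor, by -0.41 (adjusted p = 0.500). Of the 7 tested Fc receptor relatives 5 were higher and 2 lower. Among the 4 tested genes of other signalling chains, Cd3e differed by 0.39 (adjusted p = 0.601) and Hcst, the gene of the adaptor DAP10, by -0.31 (adjusted p = 0.797). Csf1r, the gene of the receptor for a macrophage growth factor, differed by -0.14 between CX3CR1high and CX3CR1low cells. Stat5b, a transcription factor downstream of growth factor receptors, differed by -0.91 (adjusted p = 0.105) and Kit by -0.40 (adjusted p = 0.504). None of the 7 tested genes on this list of STAP adaptors and partners was called, and their median was -0.165.

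Only Stap1 and Fcgr4 spanned at least 1 log2 unit over the 6 samples, by 2.18 and 1.71. The 3 genes most like Stap1, out of 1254 compared, were Svbp (Pearson r of 0.992 over 6 samples), Cpd (0.991) and Mgat4a (0.987). Svbp gave 6.18 and 6.01 (CX3CR1low), 6.66 and 6.66 (CX3CR1int) and 7.28 and 7.16 (CX3CR1high), so it too stood in the order of the sort. The genes most like Fcgr4 were Mcee (0.959), Ifnb1 (0.942) and S100a9 (0.936), which is also on the neutrophil list. Ifnb1 gave 8.80, 8.81 and 8.76 in replicates 1 and 10.11, 10.41 and 10.15 in replicates 2, and like Fcgr4 it was higher in replicate 2 of every subset. Samples of 1 subset are not independent of each other in such a correlation, which only describes the arrays.

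**Figure D4:**
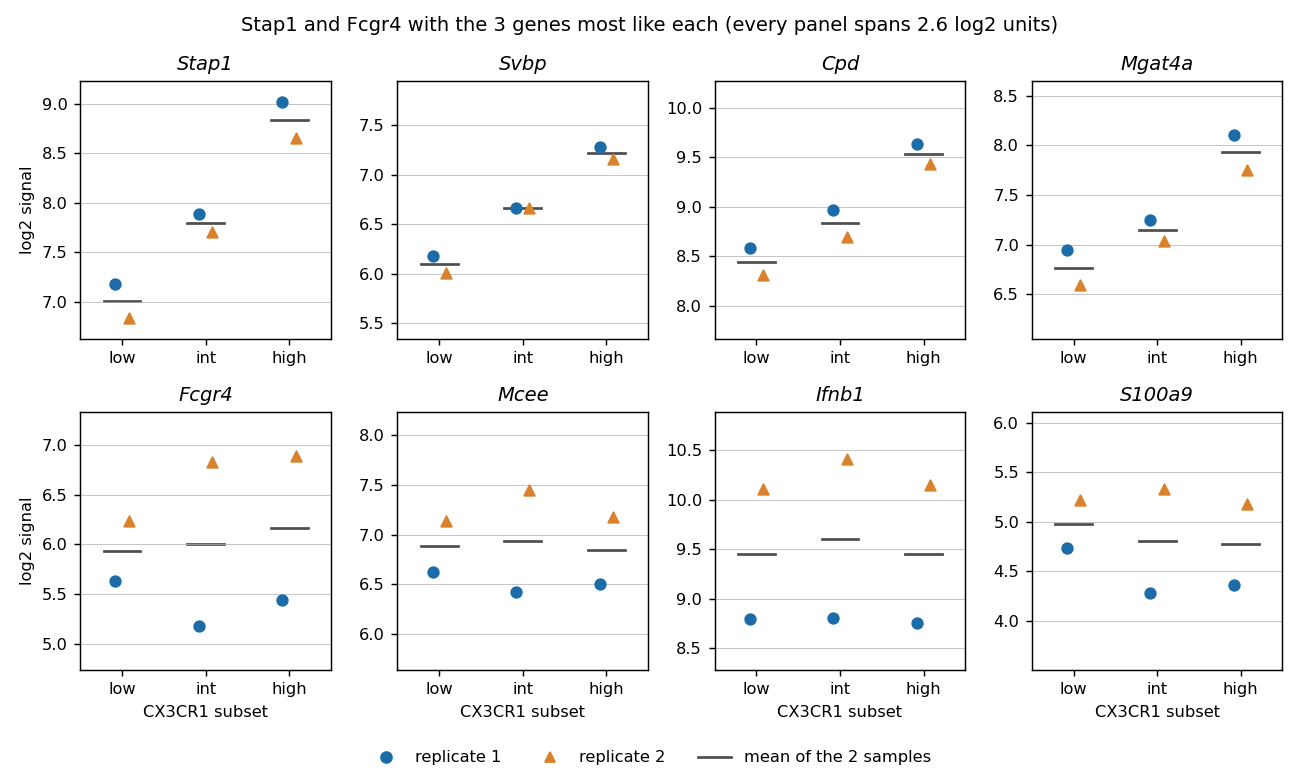
Log2 signal (vertical axis, with the same span of units in every panel) of Stap1 and of the 3 genes most like it (upper row) and of Fcgr4 and the 3 genes most like it (lower row), by CX3CR1 subset (horizontal axis). Points are samples, circles for replicate 1 and triangles for replicate 2, and bars are the means of 2 samples. The upper genes climb with the subset, and the lower ones separate replicate 1 from replicate 2, as Fcgr4 does at 5.63 against 6.24, 5.18 against 6.83 and 5.44 against 6.89.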

How the data were processed

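Per the labels' protocols, RNA of the sorted cells was amplified and hybridised to Affymetrix arrays. The authors deposited log2 signals with 2 decimals, which were used as given. The submitters' processing notes name RMA and, as software, Affymetrix Expression Console 1.4. No genome build is given in the sources used here. Of 34390 probe sets, 23521 carried 1 symbol, and the brightest stood for each of 22180 genes. Each of the 8 genes had 1 probe set, and all 8 matched RefSeq by gene identifier. A filter at the 30th percentile of the genes' mean signals (4.335) left 15529 genes.

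Subsets were compared with limma 3.58.1 (R 4.3.3), fitting a mean per subset with 3 residual degrees of freedom and a variance prior that follows intensity. Tests were two-sided, and p-values were adjusted by Benjamini-Hochberg across those genes. The fit was tested on simulated data. P-values measure the spread between pooled samples.

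To check the pairing, each sample's deviation from its subset mean was correlated, over genes, with that of the same-numbered sample of another subset, which gave 0.136, 0.178 and 0.146. Each subset's replicates came from 2 litters per the series' design text. No label ties the number to a litter, and it was taken to pair samples because every correlation exceeded 0.1, so a fit with the replicate block was run beside the main one.

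The 8 genes, 8 pathway lists and 11 marker lists were chosen with earlier results of these data known. Genes named besides the 8 were those called on a pathway list, the 2 of smallest p per list, the 3 most like a gene that spanned 1 log2 unit, and Csf1r, Adgre1, Mrc1, Cx3cr1, Xist and Eif2s3y. Clec7a, Cd200r1, Fcer1a, Ms4a2 and the cell type markers named beside results fall outside this rule and were chosen after their values were seen. Alternatives changed the filter, the probe set rule, the prior, the normalization and the samples. Scaling to core macrophage markers and the test of the replicate number were added after seeing the data.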

Additional observations from a re-analysis of the deposited data

How the results depend on the processing

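The 8 genes gave 24 differences between subsets, each recomputed under 16 alternatives. Of these 384 values, 380 stayed on their side of the threshold and 20 turned sign without passing it, none of Stap1 or Syk. The largest difference that turned was 0.23. Stap1 between CX3CR1high and CX3CR1low cells lay between 1.65 and 2.01 with each sample left out (adjusted p between 0.0347 and 0.169), where the number of the 8 genes called was 0 or 1. Shifting each array to equal core macrophage markers called Stap1 between CX3CR1high and CX3CR1int cells (1.04, adjusted p = 0.0305), 1 of the 8 genes. That shift, by -0.14 to 0.11, raised the prior degrees of freedom from 5.77 to 20.6, and Fcgr4 then passed between replicates (1.19, adjusted p = 4.95e-05). Counts of all genes called moved more. They were 62, 22 and 1 for CX3CR1high against CX3CR1low, CX3CR1high against CX3CR1int, and CX3CR1int against CX3CR1low cells. The replicate block gave 154, 47 and 0 and changed no call among the 8 genes. No filter on dim genes gave 26, 0 and 0, every probe set on its own 23, 0 and 0, the fit of only the subsets compared 39, 14 and 0, and the marker shift 221, 117 and 7. Without an intensity trend the last 2 comparisons gave 4 and 0, and a second quantile normalization gave 2 for CX3CR1high against CX3CR1int cells. Leaving out single samples gave 0 to 39, 0 to 17 and 0 calls. With 2 arrays per subset, log2 differences had a standard error of 0.193 in the median gene. The cause of these moves was not tested.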
